A study of Mus musculus with 2 samples.

Results

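PD-1 CD8 T cells that lacked messages for TIM-3 and for the progenitor factor TCF1 were described in tumours of C57BL/6 mice, in 1 library labelled WT and 1 labelled Dapl1-KO. The cells were selected on their own counts of unique molecular identifiers (UMIs, each standing for 1 captured message). A member had at least 1 UMI of Cd8a or Cd8b1, at least 1 UMI of Cd3d, Cd3e or Cd3g, and at least 1 UMI of Pdcd1, the gene for PD-1. It had no UMI of Cd4, Foxp3, Havcr2 (TIM-3), Tcf7 (TCF1), Slamf6 or the cycling gene Mki67, and granzymes D, E, F and G together made up less than 1% of its UMIs. By these rules 1029 of 21021 kept cells were members, 386 in the WT-labelled library and 643 in the Dapl1-KO-labelled library. Paired values below are given for the WT-labelled library and then for the Dapl1-KO-labelled library.

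PD-1 is an inhibitory receptor that T cells display after their antigen receptor is engaged, and tumour CD8 cells with sustained PD-1 are often called exhausted. Such cells are commonly ordered along a path. Progenitors with TCF1 and the surface receptor SLAMF6 renew themselves, and terminal cells with TIM-3 hold cytotoxic proteins but have little capacity to renew. Cells with PD-1 and neither mark lie outside both poles of that scheme.

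Haematopoietic cells bearing CD45 and CD90.2 (Thy1, found on T cells and some innate lymphocytes) had been sorted from the tumours, and messages were counted from their 3′ ends. The design set wild-type T cells beside T cells deficient for Dapl1. How many animals or tumours entered each library, how Dapl1 was disrupted, and the age and sex of the mice are not given in the sources used here. With 1 library per label there is no replicate, so no test was run, and each interval is a 95% interval that covers counting error only.

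The libraries held 154408101 and 206322042 UMIs over 16673 and 19662 barcodes, of which 13132 were found in both. Of a shared barcode only a copy with at least 2 times the UMIs of the other was kept, and such barcodes made up 232 of the 386 members (60.1%) and 272 of the 643 (42.3%). Members held 3680888 and 6359304 UMIs in all, and the median member had 8172.5 and 8373 UMIs from 1932 and 2051 genes. Y-linked messages without Xist or Tsix were present in 67 members (17.4%) of the WT-labelled library and 445 (69.2%) of the Dapl1-KO-labelled library, and Xist or Tsix without Y-linked messages in 274 (71.0%) and 0. Sex and label therefore largely coincide and cannot be told apart in most of the comparisons between libraries. Dapl1 itself had 12 counts in 8 members and 58 counts in 15 members, so it was not depleted in the Dapl1-KO-labelled library, although 3′ counts may lie outside the disrupted part of the gene. Its 5 highest cells held 75.0% and 77.6% of these counts. The directions below rest on the labels alone.

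The members carried the markers of alpha-beta CD8 T cells. Cd8b1, a chain of the CD8 coreceptor, was found in 93.5% and 94.1% of members, and in 6.25% and 7.69% of macrophage-like cells with Csf1r and Lyz2 and no Cd3 (1 of 16 and 3 of 39 cells, median 14373 and 10204 UMIs). The antigen receptor chain Trac stood at 520 and 575 CPM (a gene's summed counts, scaled so that all UMIs of a group add up to 1000000). Trdc, of the gamma-delta receptor, was at 5.71 and 5.03 CPM. Ccl5, a chemokine of antigen-experienced CD8 cells, was found in 98.4% and 98.9% of members. Its share in macrophage-like cells was 93.8% and 82.1%, so the level separates the cells better. The Ccl5 level was 13704 and 15597 CPM in members against 2837 and 3576 CPM in naive-like CD8 cells (with Tcf7 and a naive or central memory marker, without Pdcd1) and 773 and 506 CPM in macrophage-like cells. Cd8b1 and Pdcd1 were used in the selection, while Trac and Ccl5 were not. Nothing in Cd8b1, Trac, Trdc and Ccl5 went against the name of the cells. Trdc is only 1 of 5 genes in the gamma-delta marker list. At least 2 UMIs of that list were in 17.4% and 22.9% of members. The shares were 5.23% and 11.8% in naive-like CD8 cells and 19.9% and 25.8% in PD-1 TIM-3 cells. Tcrg-C2 and Trgv2 of the list were at least 1.5-fold higher in members than in progenitor-like PD-1 cells, and Trdc lower. The part of gamma-delta T cells in this was not tested.

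Absence of TIM-3 was less firm than presence of PD-1, because Havcr2 detection followed depth. Among PD-1 cells without Tcf7 and Slamf6, a Havcr2 UMI was found in 24.1% and 26.4% of cells with 3000 to 5000 UMIs, in 43.9% and 44.7% with 5000 to 10000 UMIs, and in 86.8% and 84.1% with 20000 UMIs or more. Over all depths the shares were 58.5% and 57.7%. The PD-1 TIM-3 cells were deeper than the members, with medians of 13243.5 and 13929 UMIs. Some members may therefore carry undetected Havcr2, and how many cannot be told from these counts. Of the members, 140 (36.3%) and 211 (32.8%) lay just inside the PD-1 limit with 1 Pdcd1 UMI. Just outside the limits lay 208 and 364 cells with exactly 1 Havcr2 UMI, 112 and 143 with exactly 1 UMI of Tcf7 and Slamf6 together, and 43 and 86 with exactly 1 Mki67 UMI. Granzymes D to G were at 0 in 286 and 476 members, and 3 and 7 members held 0.5% or more, beside 2 and 6 cells outside with 1% to 2%.

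**Figure D1:**
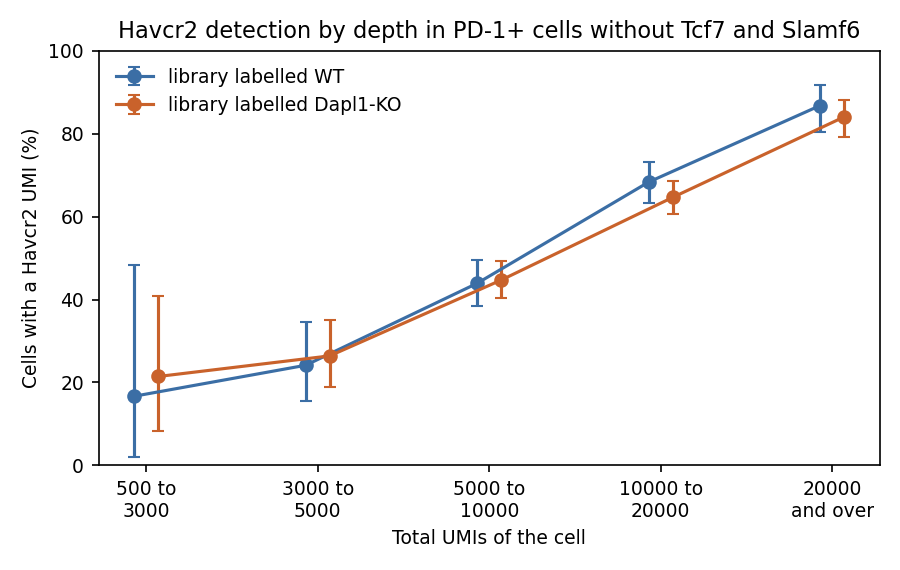
Share of PD-1 CD8 cells without Tcf7 and Slamf6 that held a Havcr2 UMI (vertical axis, percent) against the total UMIs of the cell (horizontal axis, 5 bins), for the WT-labelled library (blue) and the Dapl1-KO-labelled library (orange), with exact 95% intervals. The share climbs from 16.7% and 21.4% in the shallowest bin to 86.8% and 84.1% in the deepest, and the intervals of the libraries overlap in every bin.

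The members were a larger share of CD8 T cells in the Dapl1-KO-labelled library. They made up 386 of 4761 gated CD8 T cells (with Cd8a or Cd8b1 and Cd3, without Cd4 and Foxp3) in the WT-labelled library (8.11%, 7.35% to 8.92%) and 643 of 5997 in the Dapl1-KO-labelled library (10.7%, 9.95% to 11.5%), a difference of 2.61 percentage points (Newcombe interval 1.51 to 3.71). Among PD-1 CD8 cells without Mki67 they were 28.1% and 32.3%. PD-1 TIM-3 cells also held a larger share in that library (11.4% and 14.6%), as did effectors without PD-1 (5.71% and 9.75%). Progenitor-like PD-1 cells, at 5.59% and 5.35% of gated CD8 T cells, did not differ beyond counting error (-0.23 points, -1.11 to 0.63). Among PD-1 CD8 cells without Mki67, however, they were 19.4% and 16.1% (-3.27 points, -5.94 to -0.65). Naive-like CD8 cells held a smaller share of gated CD8 T cells (22.1% and 11.5%). The difference for the members was -0.16 points (-2.79 to 2.07) among cells with Y-linked messages and no Xist. It was 0.83 (-0.055 to 1.70) when 5 cycling genes had to be 0, and 0.14 (-0.89 to 1.16) when every deposited barcode was kept.

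**Figure D2:**
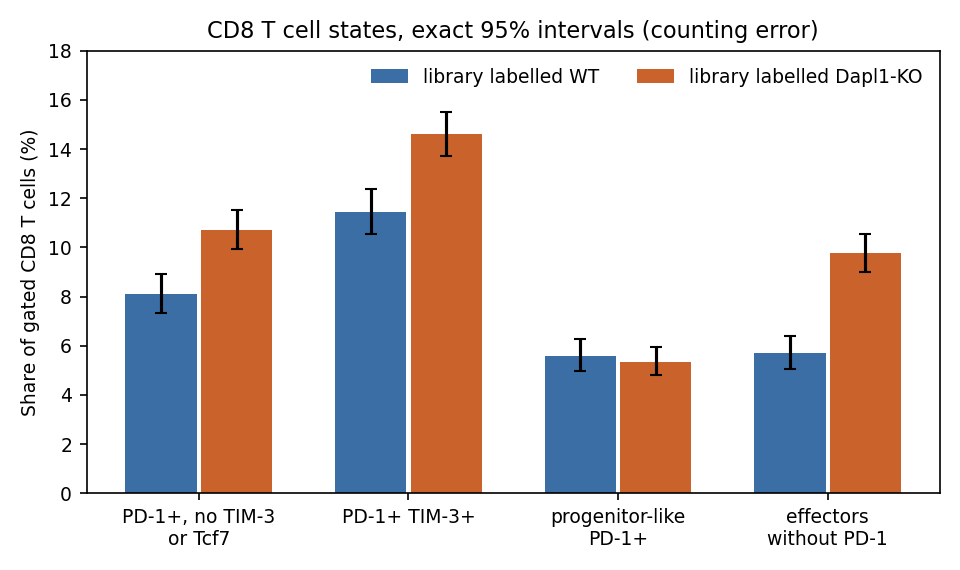
Share of gated CD8 T cells (vertical axis, percent) in each of 4 states, in the WT-labelled library (blue) and the Dapl1-KO-labelled library (orange), with exact 95% intervals for counting error. The bars for the described cells stand at 8.11% and 10.7%, those for PD-1 TIM-3 cells at 11.4% and 14.6%, and those for progenitor-like cells overlap.

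Most members expressed tissue and effector genes. Unthinned, Cxcr6, a chemokine receptor of tumour and tissue T cells, was found in 70.7% and 75.7% of members against 10.8% and 14.7% of naive-like CD8 cells (median 8355 and 9953 UMIs). Lag3, an inhibitory receptor, was found in 64.5% and 64.7% against 6.18% and 7.55%. Gzmk, the granzyme of many pre-exhausted and memory CD8 cells, was found in 64.2% and 62.5% against 4.66% and 8.27%. Nrgn, a calmodulin-binding protein best known from neurons, reached 22.02% and 25.3% against 3.99% and 3.77%. Klrg1 was found in 5.70% and 7.93% against 1.52% and 1.60%, and Ccl1 in 4.66% and 4.35% against 0.67% and 1.02%. The residency integrin Itgae was at 1.30% and 1.09%, not above the 4.09% and 3.05% of naive-like cells, and is not read as a mark of the members. Il7r (20.2% and 19.8%) and Xcl1 (19.2% and 19.1%) were both less frequent than, or level with, their shares in naive-like cells, which were 89.4% and 74.3% for Il7r and 19.2% and 37.3% for Xcl1.

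Between the libraries, 3 of these 12 genes had a difference whose interval stayed clear of 0 both unthinned and after each cell was thinned to 3000 UMIs (10 and 22 shallower members left out). Ly6c2, a surface antigen of effector and memory CD8 cells, was found in 26.4% and 58.3% of members unthinned and in 17.0% and 40.9% thinned, a thinned difference of 23.9 points (18.3 to 29.1). Ly6c2 was also found in 39.7% and 63.1% of naive-like cells and in 18.8% and 21.1% of macrophage-like cells after thinning. The members were thus below naive-like cells in both libraries, and the naive-like cells parted between the libraries in the same direction. The share of members was above that of macrophage-like cells in the Dapl1-KO-labelled library alone. Gzma, a tryptase granzyme, was found in 11.2% and 22.1% of members thinned, against 6.25% and 5.26% of macrophage-like cells. Ifitm1, an interferon-induced membrane gene, was found in 0.80% and 9.18% of members thinned. Naive-like cells had Ifitm1 in 0.38% and 1.31%, and macrophage-like cells in 12.5% and 34.2%. Cxcr6 was at 44.2% and 51.7% thinned, where the interval of the difference (1.14 to 13.8 points) excluded 0, while the unthinned interval (-0.52 to 10.7) did not. Gzmk and Lag3 differed by -1.20 points (-7.44 to 4.95) and 1.001 points (-5.28 to 7.19) after thinning.

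**Figure D3:**
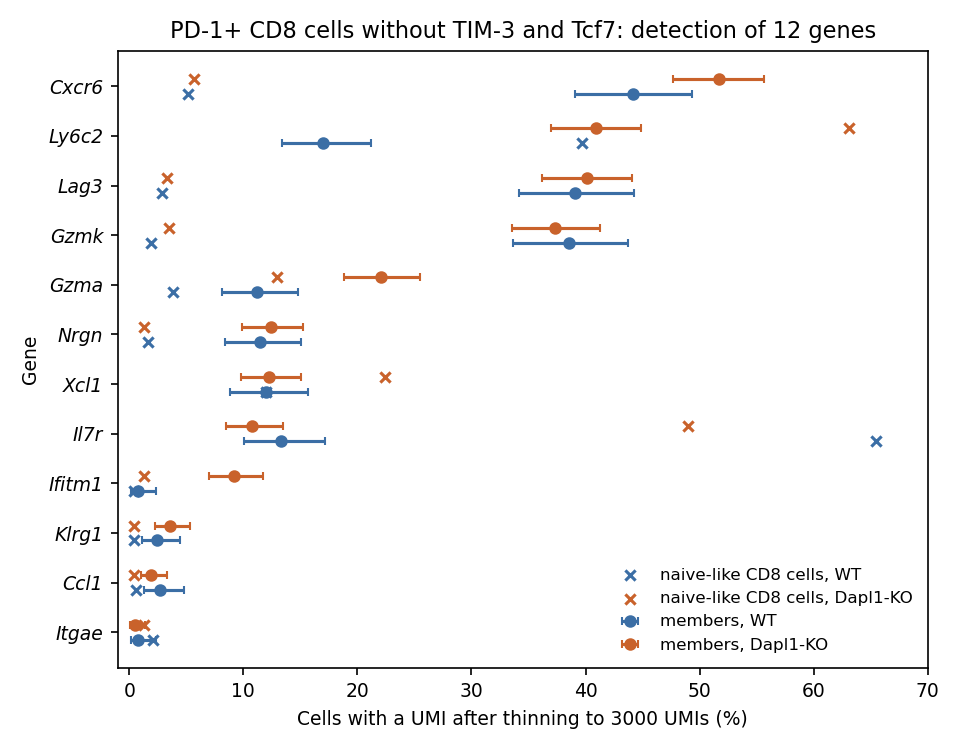
Share of cells with a UMI after thinning to 3000 UMIs (horizontal axis, percent) for 12 genes, in the described PD-1 cells (circles with exact 95% intervals) and in naive-like CD8 cells (crosses), in blue for the WT-labelled library and orange for the Dapl1-KO-labelled library. Cxcr6, Lag3 and Gzmk stand far above the naive-like crosses, and the circles of the libraries part most for Ly6c2 (17.0% and 40.9%).

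Against PD-1 TIM-3 cells, the members held less of 4 cytotoxic granule messages and more of Klf2, Bcl2, Cxcr4 and Cd69. Each comparison with a neighbouring state was made within each library, over genes at 20 CPM or more, and a gene was called only if it differed at least 1.5-fold the same way in both. Where only the members reached 20 CPM in a library, a gene could only be called higher. Where only the neighbour reached it, a gene could only be called lower. Gate genes were not read. Of 4197 genes, 38 were higher in members (0.905%) and 53 were lower (1.26%). Klf2, the factor that maintains S1pr1 and quiescence, was at 115 and 103 CPM in members and 25.3 and 34.8 CPM in TIM-3 cells. Bcl2, a survival factor, was at 101 and 54.3 CPM in members and 44.9 and 28.4 CPM in TIM-3 cells. Cd69 (111 and 120 against 53.5 and 64.5 CPM), which antagonises S1P receptor exit, and the chemokine receptor Cxcr4 (91.0 and 72.8 against 47.9 and 35.9 CPM) were higher too. Of 7 naive, memory and progenitor genes at level, 2 were higher (Klf2 and Bcl2) and 0 lower. Also higher were Gpr183, Cd7, Emb, Pmepa1 and Socs1, a brake on cytokine signals.

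Lower in members were Gzmb (540 and 1082 against 1126 and 2193 CPM) and Prf1 (103 and 212 against 281 and 621 CPM), which encode granzyme B and the pore-forming perforin. Gzmc had the widest gap, at 55.4 and 60.2 CPM in members and 266 and 565 CPM in TIM-3 cells. It lies in the same gene cluster as the granzymes that the selection limited. The decoy receptor Il1r2, the chemokines Ccl9 and Ccl1, the growth factor Areg, the protease inhibitor Serpine2, the metallothionein Mt2, and Nrgn were lower as well. Among 17 cytotoxic granule genes at level, 0 were higher and 4 lower (Gzmb, Gzmc, Prf1, Stx11). Of 20 glycolysis and hypoxia genes 3 were lower (Hk2, Slc16a3, Bnip3). No gene of the 11 inhibitory receptors or the 16 exhaustion and effector transcription factors was called. Lag3 was at 221 and 219 CPM in members and 303 and 309 CPM in TIM-3 cells. Tox, the factor tied to exhaustion, was at 158 and 140 CPM against 165 and 137 CPM, and Gzmk at 181 and 183 CPM against 163 and 162 CPM.

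These differences moved with depth. When the gate was applied after thinning each cell to 3000 UMIs, 18 genes were higher and 19 lower. The Gzmb ratio nearer 0 of the 2 libraries then shrank from -1.02 to -0.39 on the log2 scale, that of Klf2 from 1.56 to 0.65, and Gzmc no longer differed the same way in both. Among cells with 5000 UMIs or more, 27 genes were higher and 54 lower, with -1.002 for Gzmb and 1.27 for Klf2.

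Progenitor-like PD-1 cells, which hold Tcf7 or Slamf6 without Havcr2, parted from the members by naive and memory genes. Of 4240 genes, 129 (3.04%) were higher in members and 151 (3.56%) lower. The list of naive, memory and progenitor genes had 0 higher and 12 lower among 13 at level, with a median log2 ratio of -1.84 and -1.60. Klf2 was at 115 and 103 against 553 and 462 CPM, S1pr1 at 19.6 and 28.5 against 100 and 101 CPM, and the TCF1 partner Lef1 at 30.4 and 17.9 against 97.0 and 72.3 CPM. Il7r, the receptor for a survival cytokine, was at 59.5 and 53.0 against 227 and 160 CPM. Id3 and Satb1 were lower too. Dapl1 was among the genes with the widest gap, at 3.26 and 9.12 CPM in members against 109 and 112 CPM in progenitor-like cells. Fewer members than progenitor-like cells held a Dapl1 UMI (2.07% and 2.33% against 27.4% and 26.5%).

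Higher in members than in progenitor-like cells were effector and exhaustion genes. Cxcr6 was at 225 and 319 against 84.1 and 125 CPM, Gzmb at 540 and 1082 against 245 and 433 CPM, and Gzmk at 181 and 183 against 76.0 and 93.2 CPM. Prdm1, which encodes the terminal differentiation factor Blimp-1, was at 67.9 and 58.7 against 28.5 and 27.7 CPM. Lag3 (221 and 219 against 118 and 106 CPM), Ctla4 (304 and 311 against 177 and 186 CPM) and the ectoenzyme Entpd1 (34.5 and 43.4 against 12.9 and 14.4 CPM) were also higher. Entpd1 passed 20 CPM only in members, so it could only be called higher. Tox was at 158 and 140 against 94.4 and 92.9 CPM. Of 11 inhibitory receptors 4 were higher and 1 lower (Nt5e). Of 17 transcription factors 4 were higher (Tox, Prdm1, Id2, Rbpj) and 0 lower. The activation receptor Tnfrsf9 (4-1BB), S100a4, Serpine2 and Areg were higher as well. The ratio for Areg turned to -0.14 when cells were thinned before the gate.

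Effectors without PD-1 had no Pdcd1 UMI and were gated on Ly6c2 or Gzma, so neither gene was read here. Of 4277 genes, 298 (6.97%) were higher in members and 220 (5.14%) lower, against effectors with medians of 5525.5 and 4992 UMIs. With cells thinned before the gate, 256 were higher and 154 lower. Tox was at 158 and 140 CPM in members and 58.0 and 32.1 CPM in those effectors. Lag3 was at 221 and 219 against 55.2 and 42.0 CPM, Ctla4 at 304 and 311 against 93.1 and 105 CPM, and the costimulatory receptor Tnfrsf4 (OX40) at 231 and 208 against 40.7 and 38.2 CPM. Tff1, a secreted trefoil peptide, was at 67.1 and 50.6 against 5.02 and 6.12 CPM, and Nrn1, a neuritin gene, at 59.5 and 42.6 against 7.80 and 4.67 CPM. Both passed 20 CPM only in members, so they could only be called higher. Klf2, Klf3, S1pr1 and Id3 were lower in members, and 10 of 12 naive, memory and progenitor genes at level were lower with 1 higher (Cd27). Gzmb did not pass the limit, at 540 and 1082 against 424 and 1043 CPM, nor did Ccl5, at 13704 and 15597 against 14472 and 20183 CPM.

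**Figure D4:**
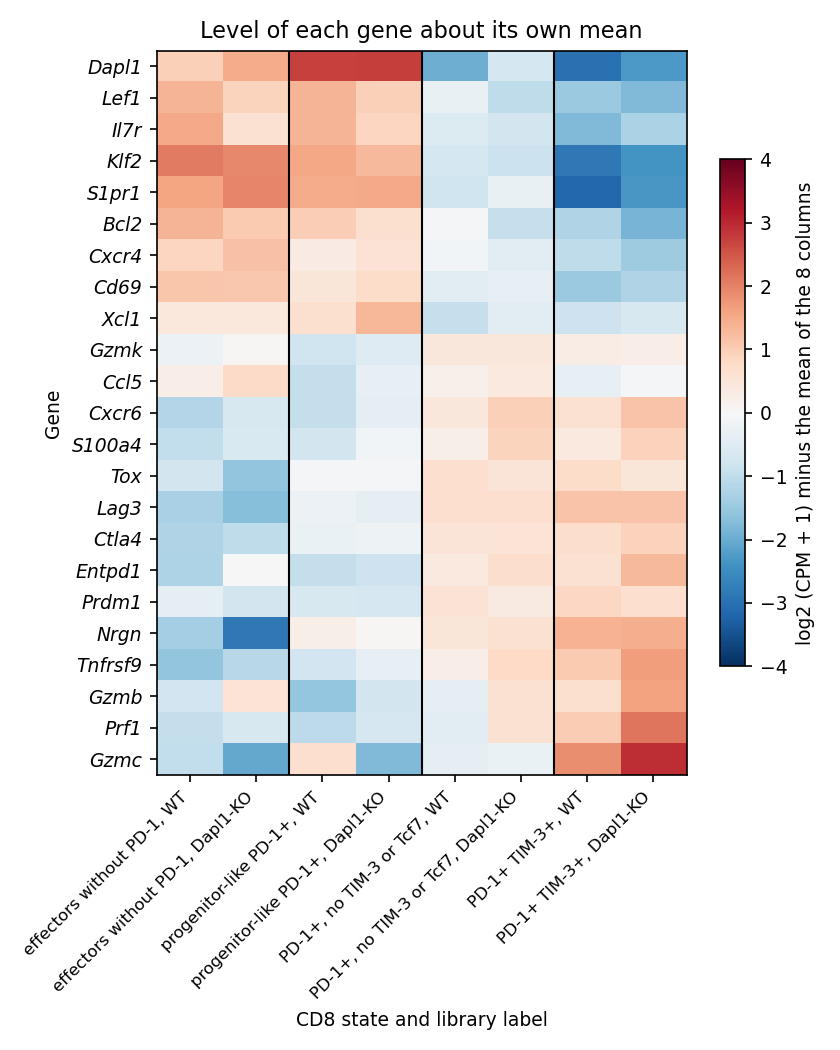
Level of 23 panel genes in 4 CD8 states, each with a column for the WT-labelled library and the Dapl1-KO-labelled library, as log2 of CPM plus 1 minus the gene's own mean over the 8 columns (colour, red above and blue below). The described PD-1 cells (the pair of columns left of the TIM-3 pair) sit between the progenitor-like and TIM-3 columns for Klf2, Il7r, Gzmb and Prf1, and lie within 1.5-fold of TIM-3 cells for Tox, Lag3 and Gzmk.

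Members were not uniform. They were split by detection of Nrgn, Gzmk or Il7r, genes taken from the fixed composition panel with values already seen, so the splits are descriptions. Members with a Nrgn UMI (85 and 163) were deeper than those without, at medians of 12709 and 13549 against 7357 and 7315 UMIs. They had 121 of 4192 genes higher (2.89%) and 156 lower (3.72%) in both libraries. Ccl1, a chemokine that draws CCR8-bearing cells, was at 51.0 and 55.1 CPM with Nrgn and 2.79 and 1.99 CPM without. Nrgn and Gldc are in a list of genes from a Ccl1-led cluster chosen earlier on these cells. Higher Ccl1 and Gldc with Nrgn are therefore no independent result. The homing receptor Ccr7 was at 269 and 210 CPM against 45.9 and 17.2 CPM, in cells that had no Tcf7 by selection. Areg (45.1 and 152 against 11.2 and 27.9 CPM), the enkephalin precursor Penk (162 and 60.6 against 15.97 and 12.2 CPM), Gldc, Serpine2, Ccl9, Gzmc and Irf8 were higher with Nrgn. Of 15 proliferation genes 8 were higher and 0 lower, although Mki67 was absent from all members. Klf2 (34.004 and 30.7 against 153 and 145 CPM), Il10, Pmepa1, Cd7 and Ccl5 were lower with Nrgn. The Ccl5 levels were 6554 and 9342 CPM with Nrgn and 17062 and 19247 CPM without.

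Il7r split the members with opposite directions to Nrgn for Klf2, S1pr1, Foxp1 and Bcl2, and with the same directions for Ccl1, Ccr7, Areg and Irf8 (higher in both splits) and Ccl5 (lower in both). The 78 and 127 members with an Il7r UMI had 93 of 4186 genes higher (2.22%) and 18 lower (0.43%). Klf2 stood at 315 and 235 CPM with Il7r and 59.1 and 66.7 CPM without, and 7 of 8 naive, memory and progenitor genes at level were higher and 0 lower. Ramp3, a receptor partner protein, was at 76.9 and 67.4 against 16.3 and 6.81 CPM. The chemokine Xcl1 was at 277 and 326 against 79.3 and 131 CPM, and Ly6c2 at 210 and 477 against 61.9 and 302 CPM. Gzmk (110 and 115 against 201 and 201 CPM) and Ccl5 were lower. The signalling adaptors Tyrobp and Fcer1g, which are natural killer and myeloid markers, were higher with Il7r, at 24.8 and 146 against 6.26 and 49.0 CPM for Tyrobp. The part of other cell types in this was not tested. Depth was close, at medians of 8807 and 8792 against 8129.5 and 8288 UMIs.

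Gzmk split the members by the fewest called genes. Those with a Gzmk UMI (248 and 402) had 15 of 4191 genes higher (0.358%) and 54 lower (1.29%). Stmn1 (93.2 and 173 against 33.97 and 93.4 CPM) and Entpd1 (39.1 and 50.2 against 24.4 and 29.0 CPM) were higher with Gzmk. Xcl1 (65.1 and 101 against 249 and 327 CPM), Il7r (35.9 and 29.6 against 111 and 103 CPM), Ccr7, Ramp3 and the interleukin 18 receptor genes Il18rap and Il18r1 were lower. Gzmk was found in 182 of 249 (73.1%) and 280 of 416 (67.3%) members with Lag3. In members without Lag3 it was found in 66 of 137 (48.2%) and 122 of 227 (53.7%). Members with Gzmk were deeper than those without, and the part of depth was not tested. Members with none of Nrgn, Gzmk and Il7r numbered 73 and 123.

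The antigen receptor genes gave a further description that the selection did not use. A Trbv segment was counted in 105 of 386 and 190 of 643 members. Trbv19 was found in 35 (33.3%, 24.4% to 43.2%) and 53 (27.9%, 21.6% to 34.8%) of these. In PD-1 TIM-3 cells Trbv19 was found in 26.3% (19.97% to 33.3%) and 22.5% (18.1% to 27.4%) of cells with a segment, and there too it led the list in both libraries. Progenitor-like cells were led by Trbv12-2 in both libraries (21.0% and 23.5%), as were naive-like CD8 cells (21.7% and 19.0%) and effectors without PD-1 (30.2% and 17.2%). Trbv19 was at 12.3% (8.13% to 17.6%) in naive-like cells of the WT-labelled library, below the interval of the members there. Cells of 1 clone share their segment, so these intervals are too narrow for animals or clones.

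Between the libraries, the members of the Dapl1-KO-labelled library had higher levels of most effector memory and type I interferon genes at level and of Gzmb and Prf1, and lower levels of Hspa1a, Hspa1b and Dnajb1. Counts were summed over members and scaled to CPM, and the log2 ratio sets the Dapl1-KO-labelled library over the WT-labelled one. Of 4432 genes at 20 CPM or more in either, 271 were at least 1.5-fold higher (6.11%) and 97 at least 1.5-fold lower (2.19%), around a median ratio of 0.08. A gene at that level in only 1 library could be called in only 1 direction. Median-of-ratios scaling gave 239 and 117, and trimmed-mean scaling 243 and 106. With every deposited barcode kept, which counts both copies of shared barcodes, 67 were higher and 26 lower. With shared barcodes left out, 574 were higher and 201 lower.

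**Figure D5:**
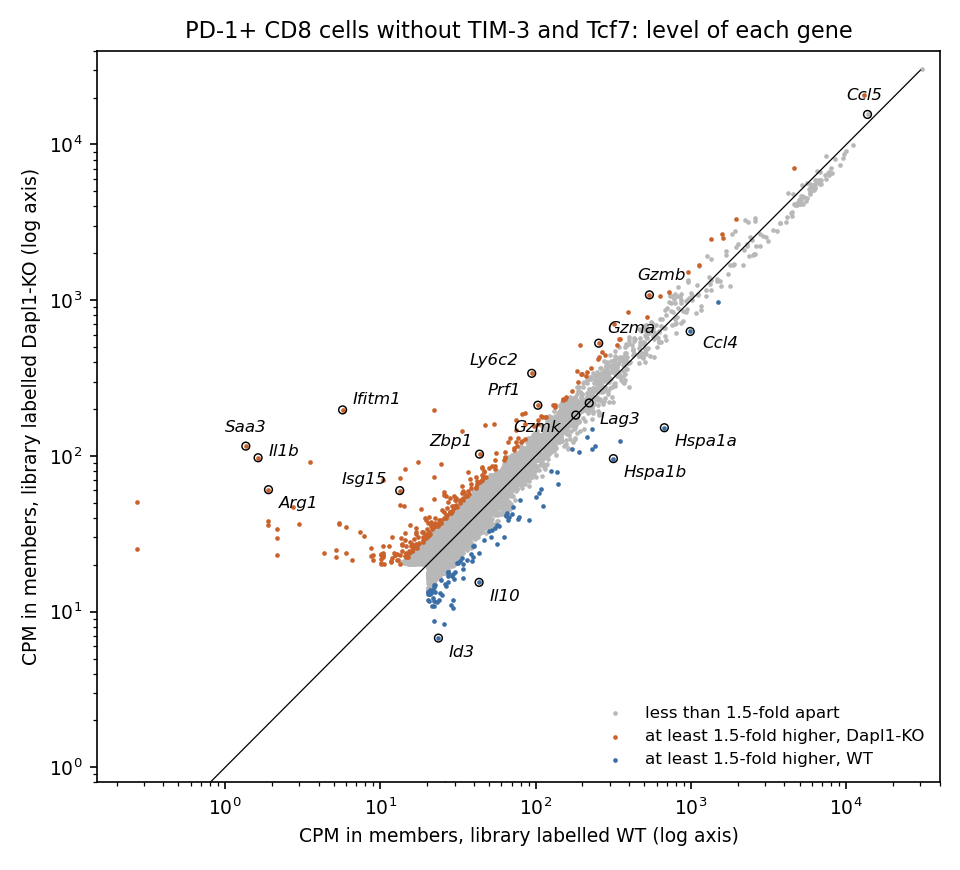
Level of each gene in the described PD-1 cells, as CPM in the WT-labelled library (horizontal, log axis) and the Dapl1-KO-labelled library (vertical, log axis), for 4432 genes at 20 CPM or more in either, with the line of equal level. The 271 genes at least 1.5-fold higher in the Dapl1-KO-labelled library are orange, the 97 lower are blue, and Lag3, Gzmk and Ccl5 lie by the line.

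The list of effector memory surface and S100 genes had 15 of 22 members higher and 0 lower (median log2 ratio 0.74). Over all 4432 genes, 6.11% were higher and 2.19% lower. Ifitm1, on this list, passed 20 CPM only in the Dapl1-KO-labelled library. Ly6c2 was at 94.3 CPM in the WT-labelled library and 339 CPM in the Dapl1-KO-labelled library (log2 ratio 1.85, 1.68 to 2.01), counted in 102 and 375 cells. Klre1, a lectin receptor of killer cells, was at 47.3 and 157 CPM (1.73, 1.5004 to 1.97). Lgals3 (192 and 515 CPM), Lgals1 (1342 and 2482 CPM), both galectins, and the calcium-binding S100a6 (1581 and 2674 CPM) were spread widely. The list median ran from 0.34 with every barcode kept to 0.84 among cells with Y-linked messages. Ly6c2 kept its side of the limit in those settings, with ratios of 1.18 and 3.04. The galectins and S100 genes are also abundant in macrophages, whose transcripts differed between the libraries as given below.

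Interferon genes were higher as a list too, with 11 of 15 type I response genes higher and 0 lower (median 0.66). Over all 4432 genes, 6.11% were higher and 2.19% lower. Isg15, Irf7 (10.3 and 23.9 CPM) and Slfn1 (13.0 and 21.4 CPM) passed 20 CPM only in the Dapl1-KO-labelled library, so they could only be called higher. Isg15, a ubiquitin-like modifier, was at 13.3 and 59.9 CPM (2.17, 1.74 to 2.63). Zbp1, a sensor of nucleic acids, was at 43.5 and 103 CPM (1.24, 0.99 to 1.499). Of 23 class I presentation and interferon-gamma genes, 6 were higher and 0 lower (median 0.38), among them the immunoproteasome gene Psmb9 (215 and 345 CPM) and Irf8 (81.8 and 185 CPM). Ifitm1 was at 5.71 and 198 CPM (5.11, 4.49 to 5.81), in 6 and 78 members, and at 127 and 598 CPM in macrophage-like cells.

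Of the granule genes, 4 of 17 were higher and 0 lower (median 0.12), beside 6.11% higher and 2.19% lower over all 4432 genes. Gzmb was at 540 and 1082 CPM (1.003, 0.93 to 1.08), counted in 276 and 546 members. Prf1 was at 103 and 212 CPM (1.04, 0.87 to 1.20). With every deposited barcode kept, the ratios were 0.14 for Gzmb and -0.04 for Prf1. Among cells with Y-linked messages they were 1.35 and 1.46. Gzma was at 255 and 529 CPM (1.06, 0.95 to 1.16), but 5 cells held 75.8% of its counts in the WT-labelled library. Its ratio was -1.36 among cells with Y-linked messages, at 769 and 299 CPM. Gzmk, of the same family, was at 181 and 183 CPM (0.01, -0.13 to 0.15).

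The exhaustion genes Lag3, Ctla4 and Tox lay close between the libraries, while some other inhibitory receptors were called. Lag3 was at 221 and 219 CPM (-0.02, -0.14 to 0.11), Ctla4 at 304 and 311 CPM (0.03, -0.07 to 0.14) and Tox at 158 and 140 CPM (-0.17, -0.32 to -0.02). Of 13 inhibitory receptors, 3 were higher (Cd38, Cd244a, Vsir) and 1 lower, with a list median of 0.28 against 0.08 over all genes. Over all genes 6.11% were higher and 2.19% lower. The lower gene was Tigit, at 29.3 and 17.5 CPM (-0.75, -1.14 to -0.35), and Cd38, an NAD-consuming ectoenzyme, was at 15.5 and 35.9 CPM (1.21, 0.79 to 1.66). Cd38 passed 20 CPM only in the Dapl1-KO-labelled library and Tigit only in the WT-labelled library, so each could be called in only 1 direction. Of 17 exhaustion and effector transcription factors, Zeb2 was higher (37.8 and 70.6 CPM) and Nr4a1 lower (78.0 and 40.7 CPM). When members with UMIs of other cell types were left out (filter given below), Zeb2 (0.56) and Vsir (0.57) fell under the 1.5-fold limit. Cd38 (1.14), Cd244a (0.83), Tigit (-0.73) and Nr4a1 (-1.29) stayed past it. Ifng, the interferon-gamma gene, was at 266 and 281 CPM (0.08, -0.03 to 0.19). Ccl4 was at 988 and 630 CPM, with 47.8% of the counts of the WT-labelled library in 5 cells, and its ratio was 1.26 among cells with Y-linked messages. Of the remaining lists, 1 of 6 chemokines was higher and 1 lower, 2 of 8 cytokines were higher and 2 lower, and 1 of 8 costimulatory receptors was higher. Of 19 receptor signal response genes 0 were higher and 3 lower, of 20 glycolysis and hypoxia genes 1 was higher, and of 16 signal brakes 3 were higher and 1 lower. None of 12 survival and death genes was called (median 0.01). Of 6 genes from a Ccl1-led cluster chosen earlier on these cells 2 were higher and 0 lower.

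Those homing and proliferation genes that were called were all higher in the Dapl1-KO-labelled library. Of 14 homing and residency genes 4 were higher and 0 lower, with Cxcr3, Itgal and Itgb2 among the higher. Over all 4432 genes, 6.11% were higher and 2.19% lower. Itgb2, a chain of the LFA-1 integrin, was at 85.6 and 161 CPM (0.92, 0.73 to 1.10) and its partner Itgal at 76.6 and 130 CPM (0.76, 0.56 to 0.96). Cxcr6 did not reach the limit, at 225 and 319 CPM (0.51, 0.39 to 0.62). Of 16 proliferation genes 7 were higher and 0 lower, although members lack Mki67. Mcm3, of the replicative helicase, was at 18.2 and 45.3 CPM (1.32, 0.93 to 1.72), and passed 20 CPM only in the Dapl1-KO-labelled library. Stmn1 was at 74.7 and 147 CPM (0.98, 0.78 to 1.18), and -0.22 with every barcode kept.

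Among the genes lower in the Dapl1-KO-labelled library were 4 chaperones, Myc, Il10 and Bcl2. The inducible chaperone Hspa1a was at 674 and 152 CPM (-2.15, -2.26 to -2.04), in 161 and 111 members, and Hspa1b at 316 and 96.1 CPM (-1.72, -1.86 to -1.58). Dnajb1, their cochaperone, was at 347 and 125 CPM (-1.47, -1.60 to -1.34). Of 13 chaperones at level 4 were lower and 0 higher, with the fourth, Hspb1, held mostly by 5 cells in each library (78.8% and 74.4%). The median of the list was -0.19. Over all 4432 genes, 6.11% were higher and 2.19% lower. Myc was at 28.5 and 11.01 CPM (-1.37, -1.83 to -0.92). Il10, an inhibitory cytokine, was at 43.2 and 15.4 CPM (-1.49, -1.87 to -1.11), and the survival factor Bcl2 at 101 and 54.3 CPM (-0.89, -1.11 to -0.67). Of 10 naive, memory and progenitor genes 3 were lower (Id3, Lef1, Bcl2) and 0 higher, while Il7r was at 59.5 and 53.0 CPM (-0.17, -0.42 to 0.09). Id3, Lef1, Myc, Il10 and Hspb1 passed 20 CPM only in the WT-labelled library, so they could only be called lower. Id3 was at 23.6 and 6.76 CPM (-1.81, -2.37 to -1.26), with 67.8% of the counts of the WT-labelled library in 5 cells. Within the WT-labelled library, Hspa1a was at 731 CPM in cells with Xist and 357 CPM in cells with Y-linked messages, against 138 CPM in Y-linked cells of the Dapl1-KO-labelled library. Hspa1a and Dnajb1 stayed below -1 in that comparison (-1.37 and -1.13), while Hspb1 turned to 3.05 and Hspa1b lay at -0.37.

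Genes of macrophages were among those with the widest ratios and sat in few cells. Il1b, an inflammatory cytokine, had 6 counts in the WT-labelled library and 619 in the Dapl1-KO-labelled library, the latter in 32 members with 76.3% of counts in 5. Saa3 (5 and 735 counts), Arg1 (7 and 386 counts) and Ccl8 (13 and 581 counts) were likewise in 27 to 30 members of that library. The 10 monocyte and macrophage markers summed to 25.8 and 139 CPM, with Csf1r and Adgre1 at 0 in the WT-labelled library, and at least 2 UMIs of them were in 9 (2.33%) and 42 (6.53%) members. The 7 natural killer and innate lymphoid markers summed to 54.3 and 240 CPM, with at least 2 UMIs of them in 16 (4.15%) and 64 (9.95%) members. Of 6 B cell markers, Cd79a and Ms4a1 were among those at 0 in both libraries, and the list summed to 17.4 and 15.4 CPM. The lists of dendritic cells (1.36 and 5.66 CPM), neutrophils (0.27 and 16.04 CPM), melanocytic cells (5.16 and 13.4 CPM), stroma (9.24 and 9.43 CPM), innate-like T cells (12.2 and 1.42 CPM) and erythroid cells (0.27 and 1.10 CPM) were low. The gamma-delta list summed to 75.8 and 102 CPM and the regulatory and helper list, which holds Ctla4, to 565 and 550 CPM. In 38 (9.84%) and 90 (13.997%) members, the B cell, monocyte and macrophage, dendritic, melanocytic and stroma lists together had 2 or more UMIs. The natural killer, gamma-delta, innate-like, regulatory and helper, neutrophil and erythroid lists were not part of this filter. When the filtered members were left out, the log2 ratio of Il1b went from 5.90 to 0.43 and that of Cxcl2 from 3.17 to -0.35. Saa3 (1.16), Arg1 (2.63) and Ccl8 (2.40) stayed past 1.5-fold, as did the natural killer and myeloid marker Tyrobp (2.37). Zeb2, Vsir, Slamf7 (0.49) and Slc2a1 (0.43) were among the genes that fell under that limit. The ratio for Ifitm1 was 4.59, for Ly6c2 1.96, for Gzmb 1.13 and for Hspa1a -2.97 without those members.

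Neighbouring states of the same libraries gave their own values for these genes. Ly6c2 was at 84.2 and 262 CPM in PD-1 TIM-3 cells, 241 and 501 CPM in progenitor-like cells and 309 and 667 CPM in naive-like cells. Gzmb was at 1126 and 2193 CPM in TIM-3 cells and 59.2 and 133 CPM in naive-like cells. Ifitm1 was at 2.62 and 138 CPM in TIM-3 cells and 10.99 and 107 CPM in progenitor-like cells. For these 3 genes the Dapl1-KO-labelled library was the higher in each state named, as in the members. Id3 was at 198 and 113 CPM in naive-like cells and 113 and 48.4 CPM in effectors without PD-1, but at 4.53 and 4.22 CPM in TIM-3 cells. Whether the difference between the libraries was larger in members than in the other states was not tested.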

How the data were processed

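Cells positive for CD45 and CD90.2 from mouse tumours were run on 10x Genomics 3′ chemistry, with 1 library per genotype label. The files deposited by the authors hold raw UMI counts, as whole numbers, for 32285 genes in each barcode. Cell Ranger 5.0.0 and the builds mm10 and GRCm38 are named in the submitters' processing notes. The members, gene lists and splits were chosen with earlier results of these data known.

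Of barcodes in both libraries, a copy was kept only with at least 2 times the UMIs of the other (21 had no such copy). Cells needed 500 genes and at most 10% mitochondrial counts, which left 9865 and 11156 cells. No doublets were removed in the main analysis; removing the highest Scrublet scores (scanpy 1.11.5, 0.8% per 1000 cells) was an alternative and took out 19 and 34 members. Unnamed gene models and gate, antigen receptor, immunoglobulin, haemoglobin, sex-linked, mitochondrial and ribosomal genes were left out of the ranking of named genes. Named genes were the 12 highest and 12 lowest ratios at 50 CPM or more, up to 4 genes per list, the 20 most abundant genes and a fixed panel; further genes come from the lists and were chosen with their values in view. Of 18 pathway lists and 11 marker lists, genes at 20 CPM or more were counted past 1.5-fold. A ratio against a count of 0 used a floor of 3 counts per library. Ratios have exact conditional binomial intervals, shares Clopper-Pearson and differences of shares Newcombe intervals (scipy 1.17.1), all at 95%. The ratio calculation was tested on simulated data. Intervals and floors cover counting error only. Some genes are not reported here. No column of per-sample values was left unused. Python 3.11.15, numpy 2.4.6, pandas 2.3.3 and matplotlib 3.10.9 were used.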

Additional observations from a re-analysis of the deposited data

Results flagged for a closer look

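The ratio of members to a neighbouring state went opposite ways in the 2 libraries for 2 genes. Ifitm1 in members over progenitor-like PD-1 cells had a log2 ratio of -0.95 in the WT-labelled library (5.71 and 10.99 CPM) and 0.88 in the Dapl1-KO-labelled library (198 and 107 CPM). In the WT-labelled library it rested on 21 counts in 6 members. Ccl1 in members over effectors without PD-1 had a log2 ratio of -1.06 in the WT-labelled library (67 and 68 counts) and 1.35 in the Dapl1-KO-labelled library (137 and 29 counts). Ccl1 was held by 18 and 28 members, with 79.1% and 62.0% of the counts in 5 cells. With 1 library per label, neither difference between the libraries was tested.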

How the results depend on the processing

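Counts below are genes higher and then lower. Against the values reported (271 and 97 between libraries, 38 and 53 against TIM-3 cells, 129 and 151 against progenitor-like cells, 298 and 220 against effectors without PD-1), fewer or more passed by construction when the limit changed. A lower fold limit gave 933 and 408, 157 and 251, 489 and 368, and 786 and 504. A fold of 2 gave 75 and 23, 4 and 18, 19 and 57, and 82 and 75. A minimum of 50 CPM gave 131 and 37, 19 and 27, 72 and 65, and 147 and 107. No minimum gave 1708 and 1264, 324 and 464, 487 and 717, and 857 and 879.

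For the other alternatives the cause was not tested. With every deposited barcode kept, 67 and 26 differed between libraries, 19 and 16 against TIM-3 cells, and 209 were higher than in progenitor-like cells. The share difference was then 0.14 points, and log2 ratios between libraries turned for Stmn1 (-0.22), Pclaf (-0.56), Penk (0.15), Prf1 (-0.044) and Ccl9 (-0.015). With shared barcodes left out, 574 and 201 differed between libraries, 68 and 32 against TIM-3 cells, and 90 were lower than in progenitor-like cells. Ratios turned for Slamf7 (-0.13), Il1rn (-0.023), Penk (1.2505) and, against progenitor-like cells, Apoe (0.77). Thinning before the gate gave 155 genes lower between libraries, 18 and 19 against TIM-3 cells, and 248 and 294 against progenitor-like cells. It turned Hspb1 (1.05), Ccl4 (0.016) and Cd74 (-0.10) between libraries, Areg (-0.14) and Cd200r1 (-0.047) against progenitor-like cells, and H2-Ab1 (0.010) against TIM-3 cells. Cells with Y-linked messages and no Xist, 67 and 445 in number, gave 743 and 406 genes between libraries and a share difference of -0.16 points, and turned Hspb1 (3.05), Nfkbid (0.29), Ccl4 (1.26) and Gzma (-1.36). Requiring 5 cycling genes at 0 gave a share difference of 0.83 points and turned Penk (0.45) and Hspb1 (0.88). Leaving out cells with messages of B cells, macrophages, dendritic cells, melanocytic cells or stroma turned Cxcl2 (-0.35). A mean over cells gave 154 genes lower between libraries.

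No paired analysis was possible because each label has 1 library, and leaving out a replicate would leave no library. Depth limits the absence of Havcr2, Tcf7 and Slamf6 in a cell, and few-cell genes rest on single barcodes.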

Other observations

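Among members with a Nrgn UMI, Lag3 was found in 70 of 85 and 136 of 163 cells, against 179 of 301 (59.5%) and 280 of 480 (58.3%) without Nrgn. The cells with Nrgn were deeper, at medians of 12709 and 13549 against 7357 and 7315 UMIs, and the part of depth was not tested. Il7r was found in 32 of 248 and 61 of 402 members with Gzmk, against 46 of 138 (33.3%) and 66 of 241 (27.4%) without, although members with Gzmk were the deeper (medians of 8972.5 and 9215.5 against 7426.5 and 6500 UMIs). Ccr7 was higher both in members with Nrgn, where Klf2 was lower, and in members with Il7r, where Klf2 was higher (301.6 and 141 against 65.7 and 73.9 CPM for Ccr7 in the Il7r split). Trbv20 was found in 27 of 190 members with a segment in the Dapl1-KO-labelled library (14.2%) and in 19.8% of TIM-3 cells there.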
